A study of Mus musculus with 8 samples.

Results

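The dopamine receptor genes Drd1, Drd2, Drd3, Drd4 and Drd5, the adenosine receptor gene Adora2a, and the orphan receptor genes Gpr6 and Gpr52 were chosen by symbol as receptors that act in medium spiny neurons (MSNs), the projection neurons of the striatum. Of these 8 genes, 7 were found among the 31053 genes counted, and Gpr52 was not analysed here. They were followed in 23687 cells that the study annotated, 8997 from the prefrontal cortex (PFC) and 14690 from the striatum. The striatal tissue is called nucleus accumbens (NAc) in the sample labels, and the study describes it as striatum with its dorsal and ventral parts, and "striatum" is used here. The study asked how loss of 1 copy of Setd1a, an H3K4 methyltransferase gene linked to schizophrenia, changes gene expression in each cell type. Each tissue gave 2 libraries from wild-type (WT) mice and 2 from Setd1a+/- mice. Setd1a+/- mice carry a CRISPR-Cas9 frameshift deletion in exon 15, ahead of the SET domain, in every cell of the body. The WT mice were littermates, all mice were male and on a C57BL/6N background, and each library pooled the tissue of 2 animals. The labels give an age of 8 to 10 weeks, and the age in the methods differs from it.

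Dopamine receptors fall into a D1-like class (Drd1, Drd5), which couples to stimulatory G proteins and raises cyclic AMP, and a D2-like class (Drd2, Drd3, Drd4), which couples to inhibitory G proteins and lowers it. In the striatum, MSNs of the direct pathway express Drd1 with the peptide genes Pdyn and Tac1, and MSNs of the indirect pathway express Drd2 with Adora2a and the enkephalin gene Penk. The receptor encoded by Adora2a, Gpr6 and Gpr52 couple to stimulatory G proteins, so that dopamine and adenosine act on cyclic AMP in opposite directions in cells of the indirect pathway. Drd5 is known from cortical pyramidal neurons and from the cholinergic interneurons of the striatum.

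On GRCm38 (GENCODE vM21), Drd1 lies on the minus strand at chr13:54051183-54055705, Drd2 on the plus strand at chr9:49340627-49408177, Adora2a on the plus strand at chr10:75316877-75334784 and Gpr6 on the minus strand at chr10:41069977-41072285. Drd5 lies at chr5:38319367-38322518 on the plus strand, where an antisense gene, Gm26560, overlaps it. The 250 bases ahead of a transcription start are shown for 3 receptors, Drd1 as the receptor that marks D1 MSNs, and Drd2 and Gpr6 as receptors of D2 MSNs that have an entry in the table used. They are RefSeq sequences on GRCm38.p6, written 5′ to 3′ on the gene's own strand, and none overlaps a GENCODE exon. Capitals mark matches, on either strand, to the cAMP response element TGACGTCA or the GC box GGGCGG.
Drd1 (chr13:54054781-54055030, minus strand, in an intron of the gene, ahead of an inner start): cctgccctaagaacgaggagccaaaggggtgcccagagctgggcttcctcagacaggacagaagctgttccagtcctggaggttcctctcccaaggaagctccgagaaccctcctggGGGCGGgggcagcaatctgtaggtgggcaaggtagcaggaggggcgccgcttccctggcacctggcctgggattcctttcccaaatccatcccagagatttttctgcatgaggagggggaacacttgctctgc
Drd2 (chr9:49340153-49340402, plus strand): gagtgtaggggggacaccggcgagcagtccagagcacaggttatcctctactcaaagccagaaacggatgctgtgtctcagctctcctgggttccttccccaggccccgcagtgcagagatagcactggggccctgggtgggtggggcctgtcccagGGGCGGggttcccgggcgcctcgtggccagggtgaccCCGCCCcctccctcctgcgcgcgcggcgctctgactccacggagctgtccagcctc
Gpr6 (chr10:41072291-41072540, minus strand): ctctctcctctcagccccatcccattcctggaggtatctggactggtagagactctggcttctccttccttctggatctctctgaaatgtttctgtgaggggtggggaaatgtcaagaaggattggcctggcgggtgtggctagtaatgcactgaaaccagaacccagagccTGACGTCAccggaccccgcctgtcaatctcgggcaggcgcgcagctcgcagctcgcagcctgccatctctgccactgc
The Gpr6 window holds 1 full cAMP response element, a sequence found in 508 of 32851 RefSeq windows of this length (1.55%), and both matches to its core TGACG lie inside it. The Drd1 window holds 1 GC box and the Drd2 window holds 2, and 32.7% of all windows hold at least 1. A second RefSeq window of Drd1, at chr13:54055659-54055908 ahead of an outer start, overlaps a GENCODE exon, holds 0 GC boxes and is not printed. No TATAAA was found in the 3 windows, against 12.4% of all windows. Their GC content was 60.8% for Drd1, 68.8% for Drd2 and 58.4% for Gpr6, above the median of 52.4% over all windows. Sequences of Adora2a and Gpr52 are not shown here.

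The 8 libraries held 15154268 to 26277553 unique molecular identifiers (UMIs), and the median annotated cell had 2302.5 to 3042 UMIs. Pairs of libraries shared 1 to 24 cell barcodes, where 4.47 to 23.9 were calculated for barcodes drawn at random. All 12 lists of cell type markers were highest in the type they mark. The study named its clusters by known marker genes, and the D2 MSN list holds Adora2a and Gpr6, so this is no independent check. Setd1a levels were 8.45 and 11.2 CPM (UMIs of a gene per 1000000 UMIs of the same cells) in the WT PFC libraries against 5.59 and 9.33 in the Setd1a+/- ones, and 13.4 and 15.2 against 9.16 and 12.5 CPM in the striatum. These values rest on 46 to 206 UMIs per library from the 3′ end of transcripts, which lies outside the deletion, so they do not check the genotype directly.

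Over all annotated cells, Adora2a had 5712 UMIs, Drd1 2504, Drd2 1861, Gpr6 1362 and Drd5 140. Drd3 had 8 UMIs, of which 6 were in D1 MSNs, and Drd4 had 4, of which 3 were in PFC excitatory neurons, so neither receptor could be compared between any groups. The study named the 3904 D1 MSNs and 2451 D2 MSNs from clusters built on these same counts, with Drd1, Drd2 and Adora2a among the genes that tell them apart. Levels in the MSN types are therefore given as a description, without a test.

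Drd1 was counted at 140 and 147 CPM in D1 MSNs of the WT libraries and at 164 and 158 CPM in those of the Setd1a+/- libraries. This was the highest of 18 cell types by tissue, with a mean of 152 ± 10.9 CPM (SD, n = 4 libraries), and its range met that of no other type. D2 MSNs held 5.01 ± 1.54 CPM. Between them came striatal microglia at 39.5 ± 19.8 CPM, striatal interneurons at 25.9 ± 10.1 CPM, and PFC excitatory neurons at 11.2 ± 3.49 CPM, and below the D1 MSNs each type overlapped its neighbour in the order. PFC astrocytes, endothelial cells, microglia and the PFC oligodendrocyte lineage had 0 Drd1 UMIs.

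Drd2, the inhibitory receptor of the indirect pathway, was counted at 186, 174, 207 and 159 CPM in D2 MSNs (WT replicates 1 and 2, then Setd1a+/- replicates 1 and 2, the order used throughout). Its mean there was 182 ± 20.4 CPM (SD, n = 4), and no library of another type reached this range. D1 MSNs held 7.56 ± 2.91 CPM, overlapping striatal endothelial cells (7.97 ± 3.15 CPM). Striatal interneurons held 16.4 ± 7.44 CPM.

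Adora2a was counted at 582, 613, 557 and 486 CPM in D2 MSNs and at 9.41, 12.6, 5.00 and 12.1 CPM in D1 MSNs. The next types after D2 MSNs were striatal microglia (75.8 ± 38.0 CPM, SD, n = 4) and striatal endothelial cells (52.5 ± 5.56 CPM), whose ranges overlapped. Gpr6 was counted at 118, 135, 142 and 119 CPM in D2 MSNs, a mean of 128 ± 12.0 CPM. In D1 MSNs it held 7.35, 12.4, 9.49 and 14.7 CPM, so all 4 libraries of D2 MSNs stood above all 4 of D1 MSNs for each of the 3 receptors of the D2 set.

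**Figure D1:**
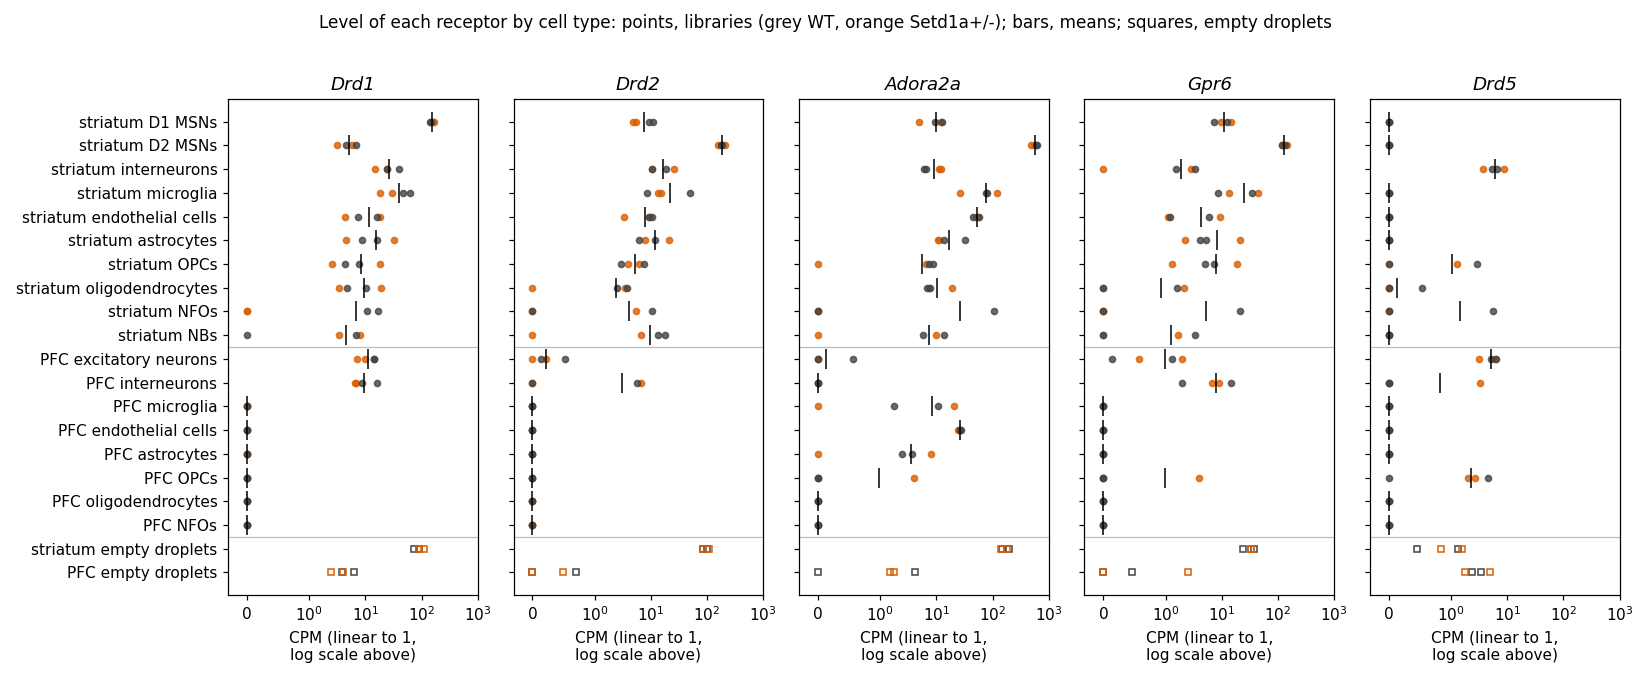
Levels of the receptors by cell type. Each point is 1 library (grey WT, orange Setd1a+/-) of a cell type, bars are means, squares are empty droplets, and the CPM axis is linear to 1 and logarithmic above. Drd1 is highest in D1 MSNs (152 CPM on average) and Drd2, Adora2a and Gpr6 in D2 MSNs (182, 560 and 128 CPM).

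In single cells, at least 1 Drd1 UMI was found in 36.2% of D1 MSNs (95% Wilson interval 34.7 to 37.7%) and in 1.63% of D2 MSNs. Drd2 was found in 44.6% of D2 MSNs and 2.36% of D1 MSNs, Gpr6 in 33.7% and 3.23%, and Adora2a in 77.1% and 2.69%. The intervals cover counting error only. For scale, striatal oligodendrocytes, which should lack these receptors, had a Drd1 UMI in 1.32%, a Drd2 UMI in 0.768%, an Adora2a UMI in 1.75% and a Gpr6 UMI in 0.341% of cells, at a median depth of 2076 UMIs against 3167 in D1 MSNs and 3422 in D2 MSNs. With every cell thinned to 1000 UMIs, the Drd1 share was 0.459% in D2 MSNs and 0.680% in oligodendrocytes, and the Adora2a share was 0.879% in D1 MSNs and 0.994% in oligodendrocytes, and neither was above that of oligodendrocytes. The Drd2 share was 0.748% in D1 MSNs against 0.254% in oligodendrocytes, and the Gpr6 share 0.987% against 0.0976%. Other non-neuronal types stood higher than oligodendrocytes. By library, the Drd2 share was 0.880, 0.899, 0.266 and 0.860% in striatal endothelial cells and 0.981, 0.949, 0.559 and 0.501% in D1 MSNs. The Gpr6 share was 0.444, 0.820, 0.125 and 1.90% in striatal oligodendrocyte progenitors. In D1 MSNs it was 0.619, 1.07, 0.953 and 1.30%. Both pairs of ranges overlapped, so no excess over non-neuronal cells is read from these shares.

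The most abundant of the receptors was also counted several times per cell. A D2 MSN with Adora2a held on average 2.62 of its UMIs and at most 16. A D1 MSN with Drd1 held 1.37 Drd1 UMIs, and D2 MSNs held 1.42 Drd2 and 1.34 Gpr6 UMIs where these were found. Thus 59.1% of D1 MSNs (2307 cells) and 10.2% of D2 MSNs (249 cells) had no UMI of Drd1, Drd2, Adora2a or Gpr6, and these cells had a median of 2897 and 2741 UMIs, below the medians of their types. All 3 receptors of the D2 set were seen in 361 D2 MSNs (14.7%).

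Drd1 and Drd2 were seen together in 31 of 3904 D1 MSNs, where 1414 cells had Drd1 and 92 had Drd2, and 33.3 cells would have both if the 2 genes were detected independently. In D2 MSNs they were together in 17 of 2451 cells, against 17.8 under independence. Within each MSN class their joint detection thus lay within 3 cells of the product of the single shares. Over all 6355 MSNs there were 48 such cells against 271 under independence, and after thinning to 1000 UMIs the ratio was 0.079 to 0.186 in the 4 libraries. This separation between the classes is part of what the clusters were built on.

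Within D2 MSNs, Drd2 and Adora2a were both found in 894 cells against 842 under independence. Drd2 and Gpr6 were both found in 423 cells against 369, and Adora2a and Gpr6 in 656 against 637. Depth raises such numbers, since a deeper cell has more chance of either UMI, and after thinning the ratio to independence was 1.03 to 1.09 for Drd2 with Adora2a, 1.02 to 1.09 for Drd2 with Gpr6 and 0.95 to 1.02 for Adora2a with Gpr6 over the 4 libraries. A D2 MSN with Drd2 therefore had the other receptors only slightly more often than a D2 MSN without it.

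The receptors of the D2 set also met in D1 MSNs. Of the 92 D1 MSNs with Drd2, 14 also had Adora2a, against 2.47 under independence, and 11 cells had Adora2a with Gpr6 against 3.39. The thinned ratio for Drd2 with Adora2a ranged from 1.16 to 19.3 over the libraries, on these few cells. The 14 cells had a median of 4955.5 UMIs, against 3146 in D1 MSNs with neither gene. In all, 111 D1 MSNs (2.84%) and 35 D2 MSNs (1.43%) had Drd1 together with at least 1 receptor of the D2 set. Doublets were not called, so cells of 2 classes captured in 1 droplet are part of these numbers to an extent that was not tested.

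**Figure D2:**
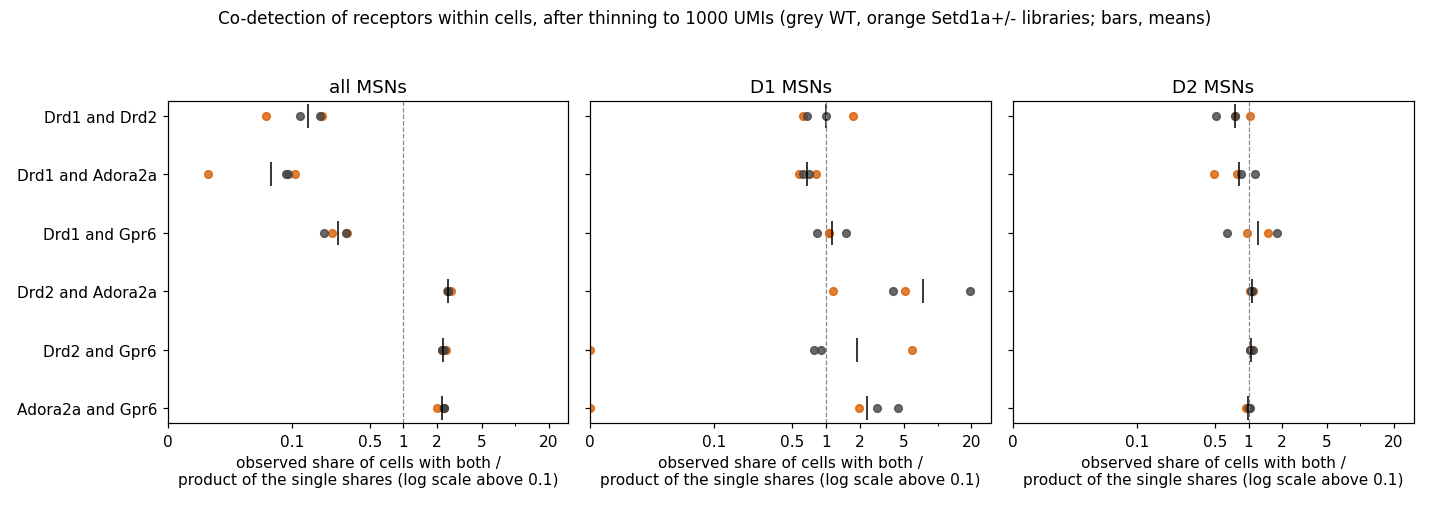
Joint detection of receptor pairs in MSNs. Points are libraries (grey WT, orange Setd1a+/-), bars are means, and the axis, logarithmic above 0.1, gives the share of cells with both genes relative to the product of the single shares after thinning to 1000 UMIs, so that 1 marks independence. Pairs of the D2 set in D2 MSNs sit between 0.95 and 1.09, and Drd1 with Drd2 over all MSNs at 0.079 to 0.186.

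Free RNA carried the same receptors. In striatal droplets that held 1 to 50 UMIs and no annotated cell, Drd1 was at 91.2 CPM (74.3 to 109 over the 4 libraries), Drd2 at 93.7 (83.4 to 107), Adora2a at 166 (143 to 193), and Gpr6 at 31.8 CPM (23.5 to 37.8). In PFC droplets Drd1 was at 4.13 CPM, Drd2 at 0.296, Adora2a at 1.86 and Gpr6 at 0.732 CPM. The receptors of MSNs were thus present in the free RNA of every striatal library.

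Levels in cells were set against this free RNA within each library. D1 MSNs held Drd1 at 169% of the level in empty droplets, and D2 MSNs held Drd2 at 194%, Adora2a at 343% and Gpr6 at 419%. Striatal endothelial cells held Adora2a at 31.9% (30.1 to 35.7% over libraries), against 12.7% for Drd1, 8.80% for Drd2 and 14.9% for Gpr6. Striatal interneurons held Drd1 at 30.2% and Drd2 at 17.4%, against 5.59% for Adora2a and 6.68% for Gpr6. Striatal microglia held them at 45.1, 22.7, 48.2 and 86.6% (Drd1, Drd2, Adora2a, Gpr6), with library values that overlapped between genes.

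**Figure D3:**
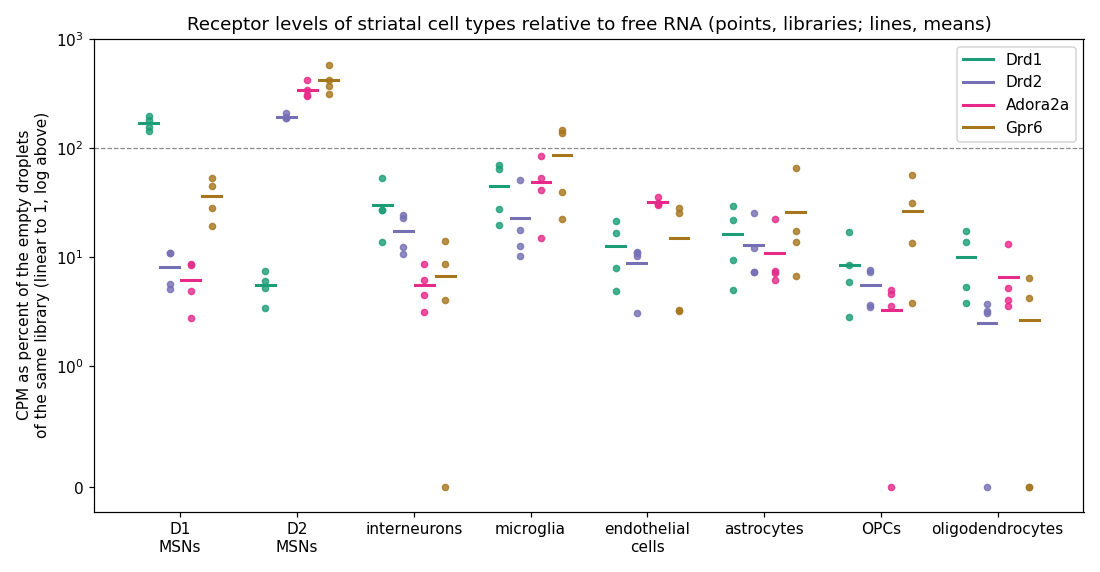
Receptor levels in striatal cell types as a percentage of their level in empty droplets of the same library. Points are libraries, lines are means, and the axis is linear to 1 and logarithmic above. Endothelial cells sit higher for Adora2a (31.9% on average) than for Drd1, Drd2 and Gpr6 (8.80 to 14.9%), and interneurons higher for Drd1 and Drd2 than for Adora2a and Gpr6.

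The tissues were clustered separately, so the same cell type could be compared between striatum and PFC with edgeR's quasi-likelihood test on summed UMIs (n = 4 libraries per tissue, genotype as a covariate, Benjamini-Hochberg adjustment over all genes of a type). Calls needed an FDR under 0.05 and a fold change above 2. In 7 shared types, 5 tests of a receptor passed the filter on low counts, and all 5 were called higher in the striatum. They fell in endothelial cells, interneurons and microglia, where 4.92%, 4.68% and 12.5% of all genes were called higher. Adora2a in endothelial cells was counted with at least 10 UMIs in every PFC library. The other 4 had at most 8 UMIs in any PFC library and passed the filter through their striatal libraries, so they are given below as values, without a test, and the number called is no support for a general difference. Fewer cells with a transcript and less of it per cell cannot be told apart in such sums.

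In endothelial cells Adora2a was at 58.0, 45.4, 55.6 and 51.0 CPM in striatal endothelial cells and at 27.5, 26.5, 25.5 and 24.1 CPM in those of the PFC. The groups did not overlap, and the difference was 1.03 on the log2 scale (SE 0.18, edgeR FDR 0.00476), beside 4.92% of all 10136 genes that were called higher in striatal endothelial cells. At least 1 Adora2a UMI was found in 12.1% of the 1998 striatal and 7.30% of the 1562 PFC endothelial cells, at median depths of 2379 and 2368 UMIs. The fold change lay so close to the cutoff of 2 that it fell to 0.96, 0.98 and 0.99 on the log2 scale, just below it, without striatum WT replicate 1, PFC Setd1a+/- replicate 1 or striatum Setd1a+/- replicate 1. The endothelial cells of the PFC also held Adora2a well above the 1.86 CPM of their own empty droplets.

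Drd1 and Drd2 had 0 UMIs in the 1562 PFC endothelial cells and were at 11.4 ± 6.63 and 7.97 ± 3.15 CPM (SD, n = 4) in the striatal ones. Against a floor of 3 UMIs over all PFC endothelial cells (0.667 CPM), the striatal means were at least 17.1-fold and at least 11.9-fold higher. These bounds do not cover the spread of the striatal libraries, 4.41 to 18.2 CPM for Drd1 and 3.31 to 10.3 CPM for Drd2. In PFC Setd1a+/- replicate 2 alone the floor was 7.24 CPM. The 4 MSN markers Ppp1r1b, Bcl11b, Rgs9 and Pde10a had a summed level of 121 to 339 CPM in striatal and 10.5 to 33.8 CPM in PFC endothelial cells, with all 4 counted in both. Their part in the differences of Adora2a, Drd1 and Drd2 was not tested.

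In interneurons, Drd1 was at 24.2, 39.5, 24.6 and 15.1 CPM in the striatum and at 8.57, 15.9, 6.66 and 6.62 CPM in the PFC. The ranges overlapped at their edges, 15.1 in the striatum against 15.9 CPM in the PFC, and the PFC values rest on 3, 8, 3 and 2 UMIs. The summed MSN markers were 247 to 332 CPM in striatal and 233 to 305 CPM in PFC interneurons. Of these markers Ppp1r1b alone had 54 to 143 UMIs per striatal library and 0 to 1 per PFC library of interneurons, and its part in the Drd1 values was not tested. In microglia, Adora2a was at 79.8, 77.3, 26.8 and 120 CPM in the striatum and at 8.21 CPM on average in the PFC, from 5 UMIs in 4 libraries. There the summed MSN markers were 549 to 956 CPM against 8.86 to 60.8 CPM, with none at 0, and their part in the result was not tested.

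Drd5, the other D1-like receptor, had 0 UMIs in all MSNs, which by the floor of 3 counts allows a share of up to 0.0768% of D1 MSNs and 0.122% of D2 MSNs with a UMI. It was counted in striatal interneurons at 5.30, 6.58, 8.62 and 3.77 CPM and in PFC excitatory neurons at 5.03, 6.27, 5.99 and 3.12 CPM. These were its highest types, and their ranges overlapped. In both tissues the empty droplets held less of it, 1.04 CPM in the striatum and 3.12 CPM in the PFC.

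Among striatal interneurons, Drd5 and Drd2 were both found in a larger share of the cells with Chat, the gene of the enzyme that makes acetylcholine, than of the others. Of 821 interneurons, 18 had a Chat UMI, and all 18 also had a UMI of Slc5a7, the choline transporter gene. Drd2 was found in 10 of them and Drd5 in 7, both together in 5, and Drd1 in 0. Among the other 803 interneurons, 33 had Drd2 (4.11%) and 11 had Drd5 (1.37%), against 55.6% and 38.9% of the Chat cells.

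Per library, Drd2 was at 153, 129, 376 and 44.4 CPM in Chat cells and at 4.73, 9.80, 11.5 and 9.63 CPM in the other interneurons. Drd5 was at 57.5, 64.5, 62.6 and 44.4 CPM against 3.15, 1.78, 6.41 and 2.89 CPM. Both receptors were higher in Chat cells in all 4 libraries, although a library held only 2 to 7 such cells. The Chat cells held 8, 12, 12 and 1 Drd2 UMIs and 3, 6, 2 and 1 Drd5 UMIs, so that the values of Setd1a+/- replicate 2 rest on 1 UMI each. Chat cells had a median of 10482 UMIs and the others 4746, which bears on the shares of cells and is divided out of the CPM. Drd1 had 0 UMIs in Chat cells and was at 27.6 CPM over the other interneurons. With 2 to 7 Chat cells per library, this 0 sets only a loose limit, and no difference in Drd1 is read from it.

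**Figure D4:**
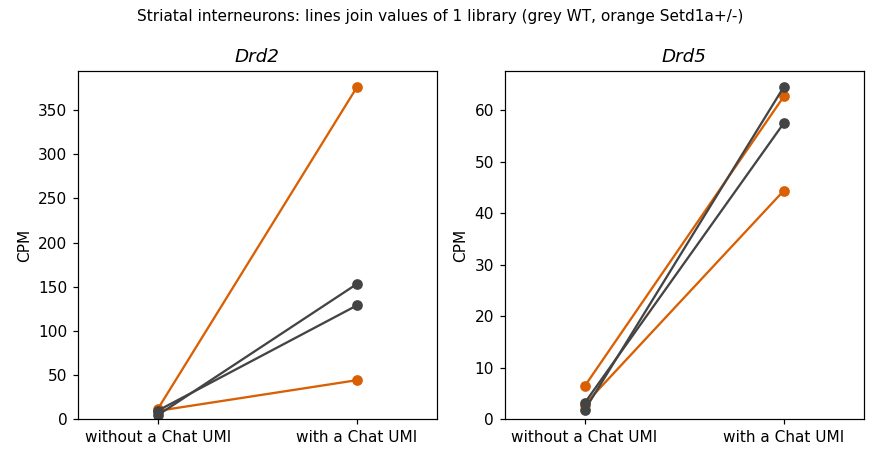
Drd2 and Drd5 in striatal interneurons with and without a Chat UMI. Lines join the 2 values (CPM) of each of the 4 libraries (grey WT, orange Setd1a+/-). For Drd2 the Chat cells sit between 44.4 and 376 CPM and the other interneurons between 4.73 and 11.5 CPM, and for Drd5 between 44.4 and 64.5 against 1.78 and 6.41 CPM.

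In the PFC, Drd1 was found in 197 of 2775 excitatory neurons (7.10%) and Drd5 in 96 (3.46%), with both in 18 cells against 6.82 under independence. These numbers are not thinned and pool subtypes that differ in both genes. Cells with both genes had a median of 7549 UMIs, against 7683 with Drd1 only, 8197.5 with Drd5 only and 6394.5 with neither. The part of pooling and depth in the excess was not tested, and joint expression within a subtype is not read from it. Drd1 was mostly a gene of the deep-layer (DL) subtypes. It was at 18.5, 17.8, 15.9 and 10.3 CPM in DL-Foxp2, at 15.7, 25.8, 16.6 and 9.01 in DL-Nnat, at 22.1, 28.5, 9.24 and 6.61 in DL-Tshz2 and at 14.8, 12.1, 11.04 and 12.4 CPM in DL-Etv1. These 4 subtypes overlapped one another. In the superficial-layer (SL) subtypes, a Drd1 UMI was found in 2 of 626 SL-Cux2 cells and 1 of 194 SL-Myh7 cells, and for SL-Cux2 WT replicate 1 gave 3.34 CPM and the other libraries 0.

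Drd5 was split differently among the deep-layer subtypes. It was at 11.7, 15.2, 11.1 and 7.70 CPM in DL-Foxp2, at 11.03, 5.70, 9.24 and 6.61 CPM in DL-Tshz2 and at 2.70, 7.85, 8.83 and 4.76 CPM in DL-Etv1. In DL-Nnat, where Drd1 had a mean of 16.8 CPM, Drd5 had a mean of 0.900 CPM from 4 UMIs. The ranges of Drd5 in DL-Nnat and DL-Foxp2 did not overlap. The subtypes were clustered on these counts, so this is a description. PFC interneurons held Drd1 at 9.45 ± 4.42 CPM and 12 UMIs of Gpr6 (7.94 ± 5.11 CPM), with 0 UMIs of Adora2a.

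Between genotypes, 25 tests of a receptor passed the filter on low counts, in 11 of 24 cell types and subtypes, and 0 were called with edgeR's quasi-likelihood test (n = 2 libraries per genotype; a call needed an FDR under 0.05 and a change of over 1.5-fold in PFC types or 2-fold in striatal ones). Over all genes 4 of 169407 tests were called (0.00236%), and 3506 had an unadjusted edgeR p under 0.05 (8158 with the replicate as a block). Among the receptors 2 tests had an unadjusted p under 0.05, 8 differences were higher and 17 lower in Setd1a+/- libraries, and DESeq2 called 0 with 0 under that p. The 25 tests are not separate. PFC excitatory subtypes are part of the excitatory neurons, and all types of a tissue share the same libraries. No general direction is therefore read from the 8 and 17. In simulated counts the test recovered 37.4% of 2-fold and 90.8% of 4-fold changes in D1 MSNs, and 3.12% and 75.5% in PFC excitatory neurons. It also called 17 unchanged genes in D1 MSNs and 7 in PFC excitatory neurons. A true 2-fold change lies on the cutoff of striatal types, so its recovery in D1 MSNs reflects the cutoff as well as the test. Changes of 2-fold or less could be missed in both tissues, and in striatal types the cutoff itself leaves most of them out.

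The defining receptors of the MSN classes had the tightest estimates. Drd1 in D1 MSNs, with WT at 140 and 147 and Setd1a+/- at 164 and 158 CPM, differed by 0.21 on the log2 scale (SE 0.14, FDR 1.00). The groups did not overlap, but Drd1 was not called. In D2 MSNs Drd2 differed by 0.06 (SE 0.17), Adora2a by -0.15 (SE 0.15) and Gpr6 by 0.09 (SE 0.17), each with FDR 1.00 from edgeR and with overlapping groups for Drd2 and Gpr6. In D2 MSNs 0.0397% of all genes were called. Adora2a in D2 MSNs was lower in both Setd1a+/- libraries (557 and 486 CPM) than in both WT libraries (582 and 613 CPM).

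The 2 tests with the smallest p concerned receptors at low levels. Drd2 in D1 MSNs stood at 10.9 and 9.11 CPM for the WT libraries against 5.50 and 4.77 CPM for the Setd1a+/- ones, a difference of -0.91 on the log2 scale (SE 0.34, unadjusted edgeR p 0.0265, FDR 1.00). The thinned share of D1 MSNs with Drd2 was 0.981 and 0.949% in WT and 0.559 and 0.501% in Setd1a+/- libraries. These levels were 5.13 to 10.9% of those in empty droplets of the same libraries. The other striatal types in which Drd2 was tested went both ways. In striatal endothelial cells Drd2 stood at 10.3 and 9.21 CPM for the WT libraries against 3.31 and 9.11 CPM for the Setd1a+/- ones. That difference was -0.94 (SE 0.58), with 6 UMIs in Setd1a+/- replicate 1, and was not called. Drd2 differed by 0.29 (SE 0.47) in striatal interneurons and by 0.06 (SE 0.17) in D2 MSNs. The difference between D2 and D1 MSNs in the genotype effect on Drd2 was 0.95 (SE 0.33, unadjusted edgeR p 0.00443, FDR 0.922), and of 10989 genes 4 were called for such a difference (0.0364%). For Drd1, Adora2a and Gpr6 the same difference was -0.38, 0.09 and -0.26, and none of the receptors was called.

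Drd1 in PFC excitatory neurons stood at 14.0 and 14.2 CPM for the WT libraries against 9.62 and 7.09 CPM for the Setd1a+/- ones, a difference of -0.74 on the log2 scale (SE 0.27, unadjusted edgeR p 0.0353, FDR 1.00). The groups did not overlap. Within subtypes the difference was -0.37 (SE 0.40) in DL-Foxp2, -0.75 (SE 0.51) in DL-Nnat and -0.16 (SE 0.42) in DL-Etv1, and none was called. In DL-Tshz2, whose values are given above, the groups did not overlap, the WT libraries being higher, but the 25 Drd1 UMIs did not pass the filter. The share of deep-layer cells among excitatory neurons was 78.3 and 71.5% in WT and 71.7 and 59.5% in Setd1a+/- libraries, and its part in the pooled difference was not tested. The thinned share of excitatory neurons with Drd1 was 1.46 and 1.64% against 0.881 and 0.667%, and with 2 libraries per genotype an exact permutation test cannot give a p below 0.333, the value found here. Drd5 in excitatory neurons differed by -0.31 (SE 0.42), with overlapping groups.

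Errors were wider in other cell types than for the defining receptors of the MSN classes. Drd1 was tested in 10 cell types and subtypes, with differences from -1.33 (SE 0.64) in striatal microglia to 0.21 in D1 MSNs. Adora2a was tested in 7, from -0.53 in striatal microglia to 0.93 (SE 0.49) in striatal interneurons. Drd1 in striatal microglia had 15, 11, 4 and 2 UMIs, and Adora2a in striatal interneurons had 8, 8, 9 and 13. Each passed the filter through the genotype in which it was higher, so these differences are given as values and support no effect. In endothelial cells Adora2a differed by -0.08 (SE 0.32) in the PFC and 0.09 (SE 0.23) in the striatum. Drd2 was tested in 4 cell types, from -0.94 (SE 0.58) in striatal endothelial cells to 0.29 (SE 0.47) in striatal interneurons.

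**Figure D5:**
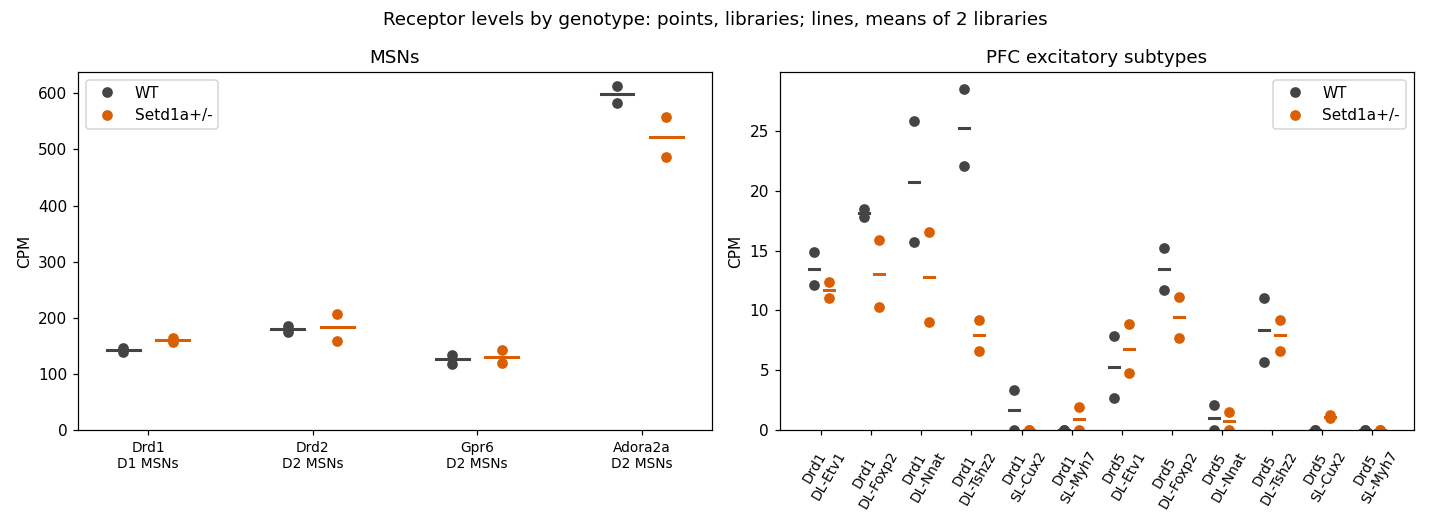
Receptor levels by genotype in MSNs and in PFC excitatory subtypes. Points are libraries (CPM) and lines the means of 2 libraries. In D2 MSNs Adora2a sits at 582 and 613 CPM in WT and 557 and 486 in Setd1a+/- libraries, and none of the differences shown was called.

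Receptor levels were also set against fixed partner genes of the same cells, and pairs with the same direction in every library are given as examples. Drd1 was at 159 ± 12.1 CPM (SD, n = 4 libraries) in D1 MSNs with a UMI of Tac1, the substance P gene, and at 86.3 ± 16.1 CPM in those without, higher in 4 of 4 libraries. For Pdyn, the dynorphin gene, the values were 160 ± 14.2 and 143 ± 11.1 CPM, also higher in 4 of 4. Adora2a was at 18.7 ± 4.46 CPM in D1 MSNs with Penk and 4.23 ± 2.43 CPM in those without, again in 4 of 4 libraries. Gpr6 was at 21.2 ± 7.74 CPM with Stard5 against 9.57 ± 3.40 CPM without it. Clusters were built on these genes, and the contrasts are descriptions. Adora2a in D1 MSNs was at 2.76 to 8.65% of its level in empty droplets. The part of free RNA and doublets in its contrast with Penk was not tested.

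Among D2 MSNs, cells with Ppp1r1b, which encodes DARPP-32, a target of cyclic AMP signalling, held more Adora2a (567 against 329 CPM) and more Gpr6 (131 against 74.2 CPM) than cells without it, in 4 of 4 libraries. D2 MSNs with Tac1 held less Adora2a (491 against 581 CPM) and more Drd1 (9.97 against 3.43 CPM) than the others, each in 4 of 4 libraries. Those with Casz1 held less Adora2a (390 against 563 CPM), those with Upb1 less Gpr6 (101 against 132 CPM), and those with Stard5 less Drd2 (150 against 187 CPM), all in 4 of 4 libraries. These are examples chosen after their values were seen. Drd1 in D2 MSNs was at 3.44 to 7.39% of its level in empty droplets. The part of free RNA and doublets in its contrast with Tac1 was not tested. Of 60 comparisons, of 4 receptors by 15 partner genes, 6 were higher in 4 of 4 libraries in D2 MSNs, 8 in none of 4, 38 in some and 8 had partner cells in fewer than 4 libraries. In D1 MSNs these numbers were 9, 8, 31 and 12.

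Across the 18 cell types by tissue, the genes whose mean log2 level was most like that of a receptor were sought among 12787 genes with at least 200 UMIs. Drd1 was most like Pdyn (Pearson r = 0.93), Cartpt and Trank1 (0.88 each), and Drd2 most like Penk (0.92), Syndig1l (0.90) and Pde1b (0.87). Gpr6 was most like Penk (0.90), Rem2 (0.88) and Rgs9 (0.87). Adora2a stood apart with lower values, 0.79 for Dach1, 0.78 for Prkch and 0.76 for Sun2. The groups of a tissue share libraries and free RNA, so these values describe the pattern and carry no test.

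The signalling partners of these receptors were followed in a list of 27 genes that holds G protein subunits (Gnal, Gnas, Gnai1), adenylyl cyclase 5 (Adcy5), regulators of G protein signalling (Rgs9, Rgs2), phosphodiesterases (Pde10a, Pde1b) and protein kinase A substrates (Ppp1r1b, Arpp21). Between genotypes 0 of 483 tests of these genes were called with edgeR, 9 had an unadjusted p under 0.05, and the median log2 difference was 0.02 in D1 MSNs, 0.04 in D2 MSNs and -0.05 in PFC excitatory neurons, beside 0.01, 0.01 and 0.00 over all genes tested in the same types. Of 126 tests over 15 genes of dopamine and adenosine synthesis, transport and breakdown and the other adenosine receptors, 0 were called and 3 had an unadjusted p under 0.05. Over all genes 3506 of 169407 tests had such a p. Both lists are described without a reading of these counts. In the second list, Ddc, which encodes the enzyme that makes dopamine from L-DOPA, differed by -1.004 in D2 MSNs (unadjusted edgeR p 0.0157).

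Between tissues, 51 of 148 tests of the signalling genes were called higher in the striatum and 1 was called lower. In microglia 15 of 21 were called higher, where 12.5% of all genes were (median log2 difference 1.74 against -0.03 over all genes). In endothelial cells 13 of 26 were, against 4.92% of all genes (median 1.06 against 0.00). In interneurons 7 of 26 were, against 4.68% of all genes (0.49 against 0.01), and in oligodendrocytes 5 of 23, against 0.971% (0.55 against -0.01). In astrocytes 8 of 19 were called higher, where 7.61% of all genes were, and in oligodendrocyte progenitors 3 of 25, where 0.185% were. In newly formed oligodendrocytes 0 of 8 were called with edgeR, and 1 had an unadjusted p under 0.05. Of the 51 calls, 28 were of genes with under 10 UMIs in every PFC library (10 of the 15 in microglia and 6 of the 13 in endothelial cells), which passed the filter through the striatal libraries, so the counts and medians describe the genes tested and support no difference of the list. Arpp21, counted with 14 to 23 UMIs per PFC library and 301 to 618 per striatal library, differed by 3.196 on the log2 scale in interneurons (FDR 2.44e-07, edgeR). This was not particular to interneurons. Arpp21 was also called higher in striatal microglia (5.02), endothelial cells (4.64), oligodendrocytes (2.31) and astrocytes (1.53). The part of free RNA in its differences was not tested. Ppp1r1b, Rgs9 and Pde10a are also among the 4 MSN markers, whose sums in endothelial cells, interneurons and microglia are given above, with the counts of Ppp1r1b in interneurons. In astrocytes the markers summed to 301 to 473 CPM in the striatum against 33.8 to 195 CPM in the PFC, in oligodendrocytes to 59.9 to 239 against 5.22 to 18.5 CPM, and in oligodendrocyte progenitors to 147 to 290 against 39.5 to 93.7 CPM. Their part in these calls was not tested. Rgs7bp, which anchors regulators of G protein signalling at the membrane, was the 1 gene called lower in the striatum, at -1.21 in interneurons, where 8.34% of all genes were called in either direction.

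Of the genes of dopamine and adenosine handling, 3 of 7 tested were called higher in striatal than in PFC interneurons, where 4.68% of all genes were. They were Th, the rate-limiting enzyme of dopamine synthesis, with 41 to 76 UMIs per striatal library, Maob, a monoamine oxidase, with 15 to 28, and Adora1, an inhibitory adenosine receptor, with 48 to 85. All 3 had at most 8 UMIs in any PFC library and passed the filter through the striatal ones, so no fold is given and the number called supports no difference of the list. Adora2b, a low-affinity adenosine receptor, was called lower in the striatum in oligodendrocyte progenitors (-1.55) and in astrocytes (-1.30), where 0.223% and 10.1% of all genes were called in either direction. These 3 higher and 2 lower were all the calls among 35 tests of that list.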

How the data were processed

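Droplet-based single-cell RNA sequencing was analysed for 8 libraries. The authors counted UMIs with Cell Ranger 3.0.2 (mm10 per the labels) and deposited raw counts per gene and barcode, without normalization and with empty droplets included. The deposited annotation tables, made with Seurat 3.2.0, hold other information than measurements, namely the library and type of each cell kept at 800 or more genes and at most 10% mitochondrial UMIs. Deposited gene-by-cell tables were not used here.

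Counts were summed per type and library (at least 10 cells in each; DL-Pou3f1 had too few) and tested with edgeR 4.0.16 in R 4.3.3 (TMM, filterByExpr with minimum count 10, Benjamini-Hochberg adjustment within a type). DESeq2 1.42.0 was an alternative. The test was checked on simulated counts. Thinned shares are exact hypergeometric expectations at 1000 UMIs (Python 3.11.15, SciPy 1.17.1, cells under 1000 left out), and independence is the product of the single shares. CPM precision follows UMI numbers, and intervals (95%) and the floor of 3 UMIs cover counting error only. Doublets were not called.

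Per the methods, a biological replicate comprised 1 WT and 1 Setd1a+/- library, so equal replicate numbers were taken as pairs. Deviations of same-numbered libraries correlated at 0.0971 to 0.599 over genes, over 0.1 in 23 of 24 groups. The main design has no block, as in the methods. Genes named are the listed receptors, their 3 most similar genes, up to 4 genes of each list with the smallest p, and fixed partner genes. Of the partners, examples with the same direction in every library are given, chosen after their values were seen, as was Rgs7bp. The members and lists were chosen with earlier results of these data known. Replicate libraries come from different mice, 2 pooled in each. 1 gene of the MSN marker and signalling lists is not reported here and was left out of their sums and counts.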

Additional observations from a re-analysis of the deposited data

How the results depend on the processing

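Of 324 alternative values over 43 results, 273 kept their direction and their side of the threshold or lay within the replicate spread. The cause of the other shifts was not tested. Without a filter on low counts, the receptors called between tissues rose from 5 to 20, genes called by genotype from 4 to 201, and genes called by tissue from 537 to 1102 in endothelial cells, 657 to 1106 in interneurons and 626 to 1269 in microglia. With the replicate block, genes called by genotype numbered 116, while receptors called stayed at 0 (2 with p under 0.05, smallest FDR 0.555), and 20 of 21 blocked results kept their call. With each library left out in turn, receptors called between tissues were 1 (without PFC WT replicate 1) to 7, genes called by genotype 120 (without WT replicate 2) to 576 (without Setd1a+/- replicate 2), and genes called by tissue 216 (without PFC WT replicate 1) to 858 in endothelial cells, 524 to 813 in interneurons and 316 to 921 in microglia. Leaving out a genotype library leaves 1 library in an arm, which is assumed to vary like the other arm. Differences by genotype then ranged from -0.11 to 0.22 for Drd2 and -0.015 to 0.20 for Gpr6 in D2 MSNs, from -0.83 to 0.024 for Drd5 in PFC excitatory neurons and from -0.091 to 0.29 for Adora2a in striatal endothelial cells, crossing 0 each time. The values with the other sign were -0.11 for Drd2 and -0.013 for Gpr6 without Setd1a+/- replicate 1, -0.015 for Gpr6 without WT replicate 1, 0.024 for Drd5 without Setd1a+/- replicate 2 and -0.091 for Adora2a without WT replicate 2. Without mitochondrial and ribosomal UMIs, levels were 168 CPM for Drd1 in D1 MSNs, 617 for Adora2a and 142 for Gpr6 in D2 MSNs, and 29.9 and 60.4 for Adora2a in PFC and striatal endothelial cells. The share difference between genotypes (Setd1a+/- minus WT) changed sign for Drd1 in D1 MSNs, from 0.85 points with thinning to -2.53 without, and for Drd2 in D2 MSNs, from 0.22 to -4.77 without thinning and -0.17 with thinning to 2000 UMIs. Other shares also changed sign, among them Gpr6 in D2 MSNs (0.58 thinned, -1.499 not), Adora2a in striatal endothelial cells (0.51 thinned, -0.48 not, -2.91 at 2000 UMIs) and in PFC endothelial cells (-0.60 thinned, 0.33 at 2000 UMIs), and Drd5 in DL-Foxp2 (0.076 thinned, -3.41 not, -1.46 at 2000 UMIs), so no direction is read from these shares. The co-detection ratio, here the mean of the library ratios and not the ratio of pooled numbers, in cells with at least 2 UMIs of each gene was 3.60 for Drd1 with Drd2 in D1 MSNs and 0 in D2 MSNs, and 1.21 for Drd2 with Adora2a, 1.23 for Drd2 with Gpr6 and 1.11 for Adora2a with Gpr6 in D2 MSNs. Without thinning it was 1.03 for Drd1 with Drd2 and 1.12 for Drd2 with Gpr6 in D2 MSNs, and 1.10 for the latter at 2000 UMIs. Depth limits Drd3, Drd4 and Drd5 most, with 8, 4 and 140 UMIs in all, and 2 libraries per genotype limit every genotype comparison.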
